A study of Homo sapiens with 8 samples.

Results

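The step from the early to the later androgen response was read in MDA-MB-453 cells as the difference between the 2 arrays of cells given 5α-dihydrotestosterone (DHT) for 16 h and the 2 arrays of cells given DHT for 4 h, with no vehicle array in the difference. MDA-MB-453 is an established human breast cancer line that lacks the estrogen receptor and carries the androgen receptor, and DHT is the potent natural androgen. Cells of every group had spent 3 days in medium free of phenol red with 5% stripped serum, which is poor in steroids, and then received vehicle or 10 nM DHT for 4, 16 or 48 h. Each of these 4 groups had n = 2 arrays, labelled as biological replicates of 1 cell line. The comparison covered all 19775 genes that a probe set with a single gene symbol names, each read by the brightest of its probe sets (by the mean of the 8 arrays), so that 4 of the 8 arrays and every gene of the series entered the difference. The vehicle and 48 h arrays only helped to estimate the spread. No vehicle array is labelled with a time, so 12 further hours of DHT and 12 further hours in culture cannot be told apart.

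The androgen receptor is a transcription factor that androgens switch on. Bound to DHT it enters the nucleus, settles on response elements near its target genes, often beside the pioneer factor FOXA1 in breast cells, and changes their transcription within hours. Some of the proteins made from these early targets act on transcription themselves, so a later time holds direct targets that go on accumulating together with genes that follow the new proteins, and in apocrine breast cancer cells the later program is known for secretory, lipid and steroid-handling genes.

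All values are log2 fluorescence signals, on which a difference of 1 is a 2-fold change. The replicate arrays correlated across genes at r = 0.997 at 4 h and r = 0.995 at 16 h, and genes are not independent replicates. On the second principal component DHT 16 h replicate 2 lay apart, at -23.06 against -0.51 to 10.84 on the other 7 arrays. On that array the 3′ probe set of the beta-actin control exceeded the 5′ probe set by 1.52 on the log2 scale, against 0.20 to 0.94 on the others, and the GAPDH control by 0.82 against 0.19 to 0.35. The part of RNA quality in the results was not tested, and for each gene list with called members the count without this array stands beside its count. Markers of the line were bright on the 4 arrays, with GATA3 at 14.12 to 14.27, FOXA1 at 11.91 to 12.25, KRT18 at 13.69 to 13.82 and ERBB2 at 12.97 to 13.42. Markers the line should lack were at or below about the median signal of all genes, 8.44, with ESR1 at 8.41 to 8.56, PGR at 7.37 to 7.60, VIM at 7.88 to 8.03, KRT5 at 7.95 to 8.25 and KRT14 at 5.86 to 6.25. The androgen receptor transcript is not analysed here.

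Between 4 and 16 h, 604 of the 19775 genes changed (3.05% at an adjusted p below 0.05 in limma's moderated test), 254 of them upward (1.28%) and 350 downward (1.77%). The largest rises were those of CYP4F8, AQP3 and UGT2B28 and the largest falls those of PALLD, ANXA3 and CYP1A1. The median change was 0.58 among genes that rose, -0.59 among genes that fell and 0.01 over all genes. A change of at least 1 on the log2 scale was called for 24 genes that rose and 51 that fell, and one of at least 2 for 7 and 5. The 4 h and 16 h arrays did not overlap in any of the 604 genes, which the call itself largely ensures, so this adds no support. At an unadjusted p below 0.05 there were 2818 genes. The vehicle-to-4 h step, for comparison of size, held 35 called genes (0.177%), with 21 higher (0.106%) and 14 lower (0.0708%), and the 16-to-48 h step held 164 (0.829%), with 69 higher (0.349%) and 95 lower (0.48%). These steps share arrays with the 4-to-16 h step, and the difference in count between steps was not tested. The 375 changed genes with further probe sets had 822 of them, of which 681 moved in the same direction, 119 were called in it and 0 were called in the opposite direction.

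The counts rest on few arrays. Without DHT 4 h replicate 1 there were 78 genes higher and 93 lower, and without DHT 4 h replicate 2 there were 73 and 131. Without DHT 16 h replicate 1 there were 594 and 513, and without DHT 16 h replicate 2 there were 116 and 301. Of the changed genes, 83 had a mean signal at or below the median of all genes.

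**Figure D1:**
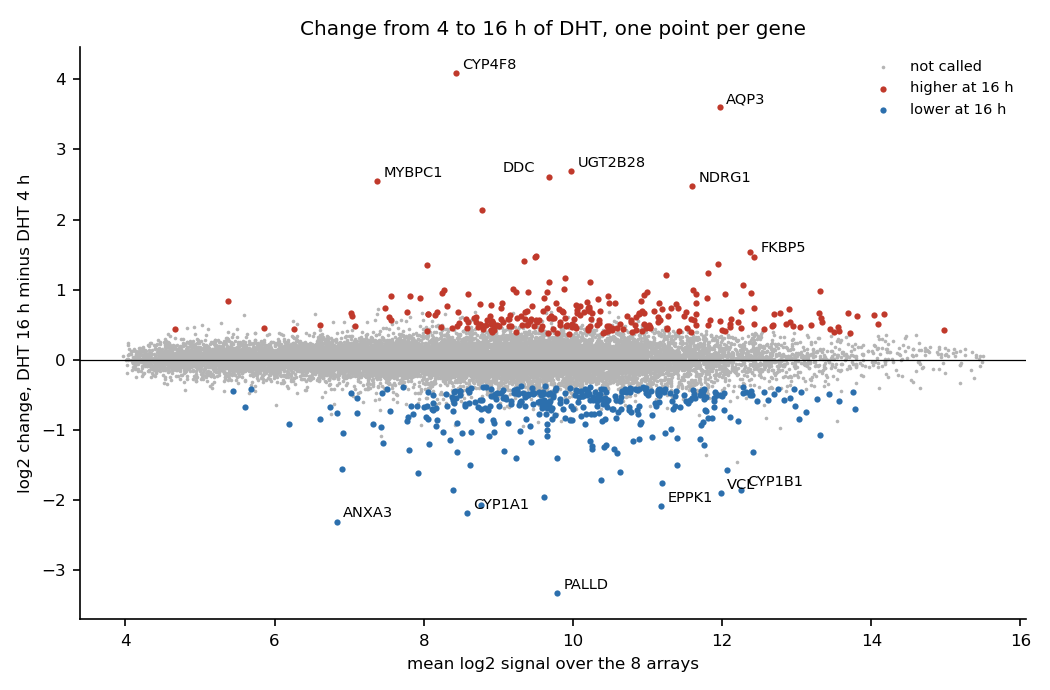
Each point is 1 of 19775 genes, with its mean log2 signal over the 8 arrays on the horizontal axis and its log2 change from DHT 4 h to DHT 16 h on the vertical axis; red points are the 254 genes called higher, blue points the 350 called lower and grey points the rest. CYP4F8 and AQP3 lie at the top, at 4.09 and 3.60, and PALLD at the bottom, at -3.33.

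CYP4F8, a cytochrome P450 that hydroxylates fatty acids and prostaglandins, read 5.84 and 6.03 at 4 h and 9.93 and 10.12 at 16 h, a change of 4.09 ± 0.11 (SE, adjusted p = 6.18e-09) or 17.0-fold. It had read 6.21 and 6.33 with vehicle, above its 4 h arrays, and the 4 h difference from vehicle did not pass (-0.34, adjusted p = 0.437). AQP3, a channel for water and glycerol, read 10.43 and 10.55 at 4 h and 14.04 and 14.14 at 16 h, a change of 3.60 ± 0.10 (SE, adjusted p = 1e-08). AQP3 had already risen by 2.09 between vehicle and 4 h. UGT2B28, an enzyme that attaches glucuronic acid to androgens, read 8.76 and 8.53 at 4 h and 11.37 and 11.29 at 16 h, a change of 2.69 ± 0.13 (SE, adjusted p = 7.34e-07). The UGT2B28 probe set is of a kind that can match related transcripts, so close members of the UGT2B family may add to its signal. DDC, the decarboxylase that makes dopamine and serotonin, read 8.35 and 8.19 at 4 h and 11.01 and 10.75 at 16 h, a change of 2.61 ± 0.13 (SE, adjusted p = 7.34e-07). The arrays of both times stood well apart in each of these genes.

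MYBPC1, a myosin-binding protein of slow muscle that is also made in luminal breast cells, read 5.66 and 5.35 at 4 h and 7.79 and 8.31 at 16 h, a change of 2.54 ± 0.17 (SE, adjusted p = 1.14e-05). It was still rising after 16 h, by 2.36 up to 48 h (adjusted p = 0.000105). NDRG1, a stress protein induced by androgens and by low oxygen, read 10.48 and 10.39 at 4 h and 12.88 and 12.94 at 16 h, a change of 2.48 ± 0.13 (SE, adjusted p = 1.12e-06), and stood at the same level at 48 h, with a difference of 0.00 (adjusted p = 1). IQGAP2, a scaffold protein of the cytoskeleton, read 7.60 and 7.56 at 4 h and 9.63 and 9.81 at 16 h, a change of 2.14 ± 0.12 (SE, adjusted p = 2.83e-06). C1orf116, known as a specifically androgen-regulated gene, rose by 1.48 (adjusted p = 3.73e-06). FKBP5, the co-chaperone that is the usual marker of steroid receptor action, read 11.72 and 11.72 at 4 h and 13.14 and 13.25 at 16 h, a change of 1.47 ± 0.10 (SE, adjusted p = 1.43e-05). The tight junction protein CLDN8 rose by 1.47 (adjusted p = 8.29e-05), HSD11B2, which inactivates cortisol, by 1.41 (adjusted p = 2.04e-05) and CHPT1, which makes phosphatidylcholine, by 1.24 (adjusted p = 3.41e-05). AACS, a ketone body-using enzyme of lipid synthesis that was picked after its values were seen, read 10.57 and 10.53 at 4 h and 11.67 and 11.87 at 16 h, a change of 1.22 ± 0.10 (SE, adjusted p = 4.36e-05). Every gene in this paragraph kept its call when any 1 of the 8 arrays was left out. Among the 15 largest rises, the uncharacterised locus LOC285097 did not: it read 7.31 and 7.52 at 4 h and 8.30 and 9.23 at 16 h, a change of 1.35 ± 0.23 (SE, adjusted p = 0.00985), and its call was lost without either 4 h array, at adjusted p up to 0.122.

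**Figure D2:**
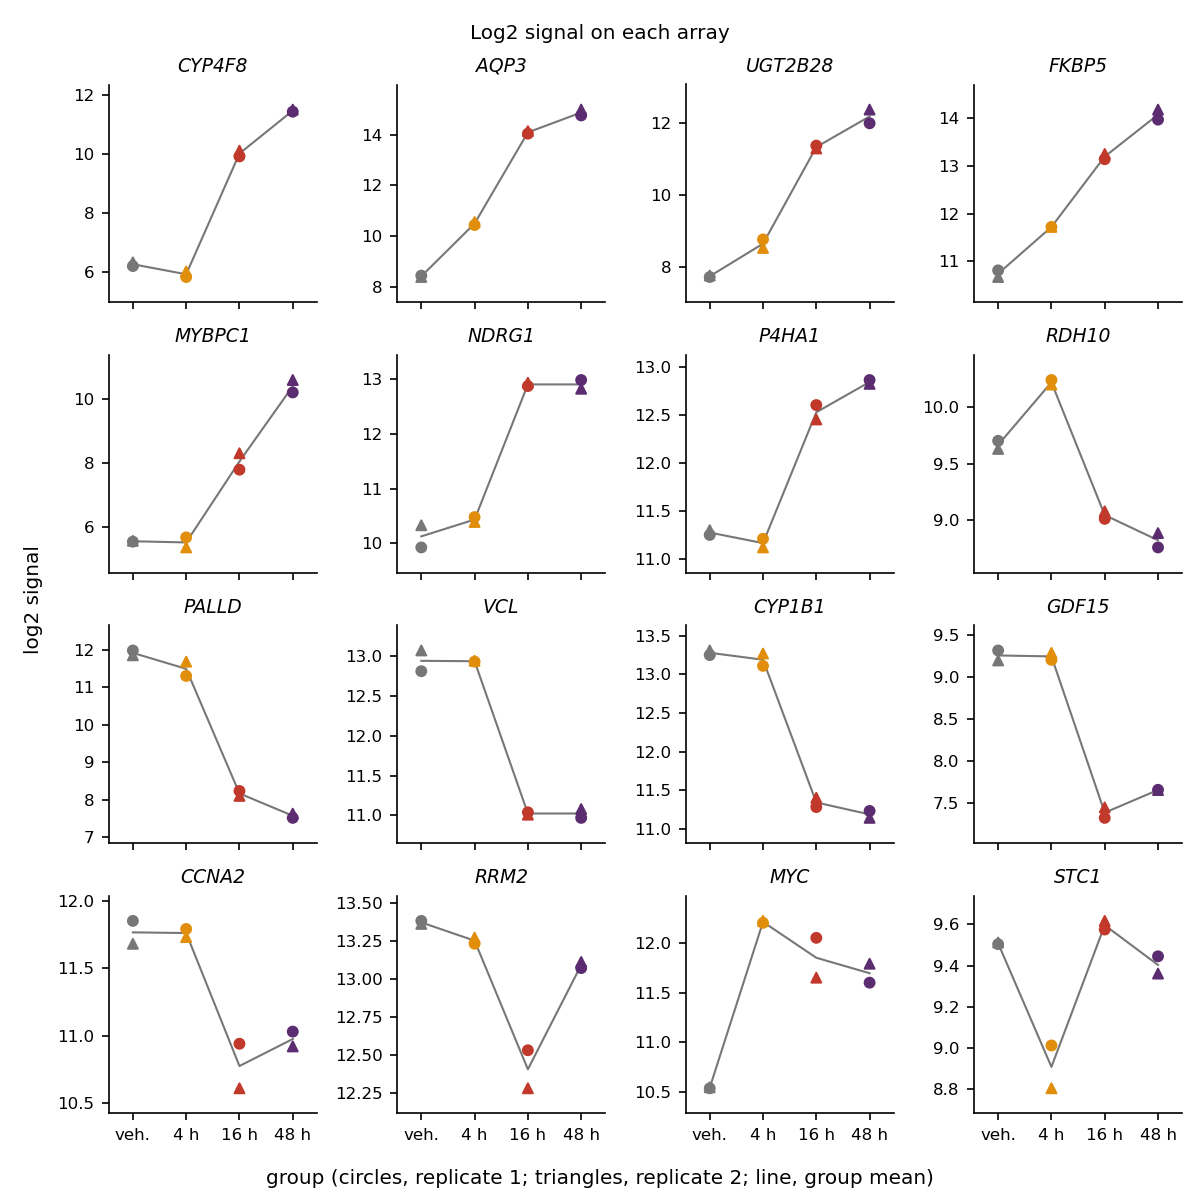
The log2 signal of 16 genes on each of the 8 arrays is plotted by group (vehicle, then DHT for 4, 16 and 48 h), with circles for replicate 1, triangles for replicate 2, a line through the group means and a scale of its own in each panel. CYP4F8 and MYBPC1 are far above the vehicle arrays only at 16 and 48 h, AQP3 and FKBP5 have a higher group mean at each later time, PALLD and VCL drop between 4 and 16 h, MYC peaks at 4 h and RRM2 is lowest at 16 h.

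PALLD, which encodes the actin-bundling protein palladin, read 11.30 and 11.68 at 4 h and 8.23 and 8.10 at 16 h, a change of -3.33 ± 0.13 (SE, adjusted p = 1.17e-07), or 10.0-fold lower. The next 2 probe sets of PALLD changed by -3.44 and -2.76, while a dim one with a mean signal of 4.82 changed by 0.04. ANXA3, a membrane-binding annexin, read 8.04 and 7.67 at 4 h and 5.36 and 5.74 at 16 h, a change of -2.31 ± 0.16 (SE, adjusted p = 1.14e-05). EPPK1, the intermediate filament linker epiplakin, read 12.25 and 12.28 at 4 h and 10.26 and 10.11 at 16 h, a change of -2.08 ± 0.10 (SE, adjusted p = 6.96e-07). VCL, the focal adhesion protein vinculin, read 12.93 and 12.94 at 4 h and 11.04 and 11.01 at 16 h, a change of -1.90 ± 0.10 (SE, adjusted p = 1.81e-06). Their 4 h differences from vehicle were -0.06 for EPPK1 and -0.01 for VCL, and neither passed (adjusted p = 0.929 and 0.992).

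The transcriptional regulator of cell motility MACC1 read 9.61 and 9.66 at 4 h and 7.66 and 7.47 at 16 h, a change of -2.07 ± 0.11 (SE, adjusted p = 1.08e-06). IGFBP3, a carrier of insulin-like growth factors, read 10.88 and 10.77 at 4 h and 8.94 and 8.79 at 16 h, a change of -1.96 ± 0.13 (SE, adjusted p = 7.19e-06). GDF15, a stress-induced cytokine, read 9.21 and 9.29 at 4 h and 7.33 and 7.45 at 16 h, a change of -1.86 ± 0.09 (SE, adjusted p = 1.08e-06). The 16 h arrays lay below the 4 h arrays by more than 1 log2 unit in each. TNC, the matrix protein tenascin C, changed by -1.76 (adjusted p = 1.96e-05) and by a further -1.59 up to 48 h (adjusted p = 0.000168). THBS1, the matrix protein thrombospondin 1, changed by -1.57, PDLIM5, a scaffold at actin filaments, by -1.59, and the transcriptional regulator ATXN1 by -1.72, with adjusted p from 5.81e-06 to 0.000146. SHISA2, an inhibitor of WNT and FGF receptor maturation, changed by -1.61 and GPR137C, an orphan receptor-like protein, by -1.55 (adjusted p = 4.23e-05 and 0.000138). The 15 genes with the largest falls, CYP1A1 and CYP1B1 of the aryl hydrocarbon receptor battery among them, kept their call without any 1 of the 8 arrays.

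Genes that DHT had moved by 4 h followed several courses afterwards. The vehicle-to-4 h and 4-to-16 h differences share the 4 h arrays, so they are given side by side with no test between them. AQP3 changed by 2.09 and then 3.60, CLDN8 by 1.79 and then 1.47, FKBP5 by 0.98 and then 1.47, and UGT2B28 by 0.90 and then 2.69. NFKBIA, the inhibitor that holds NF-kB in the cytoplasm, changed by 1.11 and then 0.66 (adjusted p = 0.00318), with the second call lost without DHT 4 h replicate 2 (adjusted p = 0.0506). MYC, the growth-promoting transcription factor, read 10.54 and 10.55 with vehicle and 12.20 and 12.22 at 4 h and 12.05 and 11.65 at 16 h. It changed by 1.67 up to 4 h and then by -0.36 ± 0.13 (SE, adjusted p = 0.193), so the later difference did not pass, and its 16 h arrays stayed above both vehicle arrays.

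Among early falls, PDE4B, a phosphodiesterase that breaks down cyclic AMP, changed by -1.24 up to 4 h and then by 0.12 (adjusted p = 0.696). The adhesion protein AMIGO2 changed by -0.98 and then -0.44 (adjusted p = 0.0597), which did not pass. FAM43A changed by -0.97 and then -0.65, SHISA2 by -0.91 and then -1.61, PHLDB2, a protein that anchors microtubules at the cell cortex, by -0.79 and then -0.76, and SIPA1L2, a Rap GTPase regulator, by -0.74 and then -1.16, all of them called in both steps. FAM43A lost its call without DHT 4 h replicate 1 (adjusted p = 0.0713), and PHLDB2 without either DHT 4 h array (adjusted p 0.0773 to 0.0811).

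Genes with opposite signs in the 2 steps were looked for after the values were seen, and are a description. RDH10, which oxidises retinol on the way to retinoic acid, read 9.70 and 9.63 with vehicle and 10.24 and 10.20 at 4 h and 9.01 and 9.08 at 16 h. It rose by 0.56 and then fell below the vehicle arrays, with a second change of -1.18 ± 0.09 (SE, adjusted p = 3.41e-05). STC1, a secreted glycoprotein hormone, read 9.50 and 9.51 with vehicle and 9.01 and 8.80 at 4 h and 9.57 and 9.62 at 16 h, a second change of 0.69 ± 0.10 (SE, adjusted p = 0.00293), whose call was lost without DHT 4 h replicate 2 (adjusted p = 0.0504). Its 16 h arrays lay just above the vehicle arrays, and a dimmer STC1 probe set differed by -0.13 from 4 to 16 h. A few genes called at 4 h were picked for a later difference near 0, and show no course of a group: CCDC86 changed by 0.86 and then 0.06, NOP16 by 0.67 and then 0.02, BYSL by 0.64 and then 0.15, the pseudouridine synthase PUS1 by 0.66 and then -0.10, and the RNA polymerase III subunit POLR3E by 0.73 and then -0.06. None of these 5 later differences passed, at adjusted p from 0.558 to 0.97.

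Counts of called list members below stand beside the 1.28% of all genes that rose and the 1.77% that fell. The lists were chosen with earlier results of these data known, so a share above these may in part reflect that choice. No list was tested as a set. Of 35 measured genes on a list of classical androgen response genes, 9 rose (25.7%, 6 without DHT 16 h replicate 2) and 3 fell (8.57%, 2 without DHT 16 h replicate 2), with a median change of 0.10 against 0.01 over all genes. AZGP1, a secreted zinc-binding glycoprotein, read 12.73 and 12.78 at 4 h and 13.66 and 13.81 at 16 h, a change of 0.98 ± 0.10 (SE, adjusted p = 0.00018). It rose with NDRG1, IQGAP2, C1orf116, FKBP5, the luminal keratin KRT19 (0.63), the elongation cofactor EAF2 (0.59), the matrix protease ADAMTS1 (0.48) and TPD52 (0.43), a protein of lipid storage and secretion. The members that fell were CENPN, a centromere protein (-0.69), PTGER4, a prostaglandin E2 receptor (-0.68), and MPHOSPH9, a centrosome protein (-0.60). Among prostate androgen targets KLK3 read 10.39 and 10.39 at 4 h and 10.36 and 10.42 at 16 h and TMPRSS2 differed by 0.15 (adjusted p = 0.568). The KLK3 probe set can match related transcripts, so its signal may not be that of KLK3. Dimmer KLK3 probe sets had mean signals of 8.3 and 7.9 and differed by 0.06 and -0.001. The count of rises was 5 without DHT 4 h replicate 1. The count of falls was 0 without DHT 4 h replicate 1 and 1 without DHT 4 h replicate 2 or DHT 16 h replicate 1.

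Other TPD52 probe sets of like brightness differed by -0.08 and 0.23 and dimmer ones by 0.34 and 0.13, none of them called. KRT19 and CENPN lost their calls without DHT 4 h replicate 1 (adjusted p 0.0638 to 0.072), and PTGER4 without either DHT 4 h array or DHT 16 h replicate 1 (adjusted p 0.0588 to 0.15). TPD52 lost its call without either DHT 4 h array or DHT 16 h replicate 2 (adjusted p 0.11 to 0.185), and EAF2 and ADAMTS1 without either DHT 4 h array or either DHT 16 h array (adjusted p 0.0514 to 0.217). MPHOSPH9 lost its call without either DHT 4 h array, either DHT 16 h array or either DHT 48 h array (adjusted p 0.0512 to 0.375). The apocrine list, genes of the secretory state of breast epithelium, had 9 of 23 measured members higher (39.1%, 7 without DHT 16 h replicate 2) and 1 lower (4.35%, 1 without DHT 16 h replicate 2), with a median change of 0.11. Beside CYP4F8, UGT2B28, CLDN8 and AZGP1, the members that rose were ABCC11, an efflux pump of apocrine secretion, FASN, SERHL2, the glutathione-recycling enzyme GGT1 and PIP. ABCC11 read 10.53 and 10.64 at 4 h and 11.29 and 11.22 at 16 h, a change of 0.67 ± 0.09 (SE, adjusted p = 0.00231), while a dimmer probe set differed by 0.08. PIP, the prolactin-inducible protein of apocrine cells, read 10.06 and 9.92 at 4 h and 10.36 and 10.39 at 16 h, a change of 0.39 ± 0.09 (SE, adjusted p = 0.04998), and then rose by 0.87 up to 48 h (adjusted p = 0.00124). KMO, which turns kynurenine into hydroxykynurenine, changed by -0.58 (adjusted p = 0.00595). TDO2, the enzyme that opens the same pathway and was picked after its values were seen, changed by -0.91 (adjusted p = 0.0112). The count of apocrine rises was 5 without DHT 4 h replicate 1, and the fall of KMO was not called without DHT 4 h replicate 1. SERHL2 and KMO lost their calls without DHT 4 h replicate 1 (adjusted p 0.0871 to 0.191), and TDO2 without DHT 4 h replicate 1 or DHT 16 h replicate 2 (adjusted p 0.0666 to 0.143). FASN lost its call without either DHT 4 h array (adjusted p 0.0529 to 0.179), and GGT1 without either vehicle array, either DHT 4 h array, DHT 16 h replicate 2 or either DHT 48 h array (adjusted p 0.0556 to 0.253). PIP lost its call without any 1 of the 8 arrays (adjusted p 0.0682 to 0.342).

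Enzymes of steroid metabolism rose in 3 of 28 measured members (10.7%, 2 without DHT 16 h replicate 2) and fell in 0, and 1 was lower at an unadjusted p below 0.05. The members that rose were UGT2B28, HSD11B2 and SRD5A1, the 5α-reductase that makes DHT from testosterone. HSD11B2 read 8.41 and 8.58 at 4 h and 9.90 and 9.92 at 16 h, a change of 1.41 ± 0.10 (SE, adjusted p = 2.04e-05), after 0.75 between vehicle and 4 h, and rose by 1.29 up to 48 h. SRD5A1 read 9.18 and 9.34 at 4 h and 9.81 and 9.90 at 16 h, a change of 0.59 ± 0.10 (SE, adjusted p = 0.0103). Of 20 genes that several steroid receptors raise, 3 were higher (15%, 2 without DHT 16 h replicate 2) and 1 lower (5%, 1 without DHT 16 h replicate 2). FKBP5, NFKBIA and the forkhead factor FOXO3 (0.49) rose, and ERRFI1, an inhibitor of EGF receptor kinases, fell by 0.93 (adjusted p = 0.000239). Of 23 receptor chaperones and coregulators, 2 rose (8.7%, 2 without DHT 16 h replicate 2), FKBP5 and the corepressor NRIP1 (0.74, adjusted p = 0.00248), and 0 fell, with 0 lower at an unadjusted p below 0.05. SRD5A1 lost its call without DHT 4 h replicate 1 or DHT 16 h replicate 2 (adjusted p 0.0553 to 0.141), and FOXO3 without either DHT 4 h array or DHT 16 h replicate 2 (adjusted p 0.15 to 0.225). The steroid-shared count of rises was 1 without DHT 4 h replicate 2 and 5 without DHT 16 h replicate 1.

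Genes of the low-oxygen response and of glycolysis were among those that rose. Of 28 measured HIF target genes, 11 rose (39.3%, 9 without DHT 16 h replicate 2) and 0 fell, with 2 lower at an unadjusted p below 0.05, and the median change was 0.21 against 0.01 over all genes. BNIP3, a mitophagy receptor, read 11.66 and 11.43 at 4 h and 13.04 and 13.13 at 16 h, a change of 1.54 ± 0.10 (SE, adjusted p = 8.91e-06). P4HA1, a subunit of the collagen prolyl hydroxylase, read 11.21 and 11.12 at 4 h and 12.60 and 12.45 at 16 h, a change of 1.36 ± 0.09 (SE, adjusted p = 1.14e-05). Neither difference of 4 h from vehicle passed (-0.12 and -0.11, adjusted p = 0.824 and 0.831). PFKFB4, which tunes phosphofructokinase, changed by 1.17 (adjusted p = 0.000212) and PDK1, which keeps pyruvate out of the mitochondrion, by 1.11 (adjusted p = 0.00102). The other members that rose were NDRG1, ENO2 (0.81), P4HA2 (0.60), the oxygen sensor EGLN1 (0.59), HK2 (0.57), BNIP3L (0.51) and LDHA (0.43). Further probe sets of BNIP3 and BNIP3L changed by 1.44 and 0.96, both called, and those of the other members were not called. They differed by 0.41 and 0.08 for PDK1, 0.45 for PFKFB4 and 0.19 to 0.25 for EGLN1. For P4HA2 the values were 0.41 and 0.09, for HK2 -0.16 and -0.03, and for a dim P4HA1 probe set 0.06.

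Several standard HIF targets did not pass. The angiogenic factor VEGFA read 11.51 and 11.43 at 4 h and 11.65 and 11.32 at 16 h, a difference of 0.01 (adjusted p = 0.982), the glucose transporter SLC2A1 differed by 0.18 (adjusted p = 0.504), the peptide hormone ADM by 0.02 (adjusted p = 0.97) and the carbonic anhydrase CA12 by -0.20 (adjusted p = 0.392). Other VEGFA probe sets differed by 0.30 at like signal and by -0.50 and -0.29 at lower signal, none of them called. ADM was dim, with a mean signal of 5.95, where differences are compressed. The next genes are outside the list and were picked after their values were seen. EPAS1, which encodes HIF-2α, read 11.14 and 11.07 at 4 h and 10.36 and 10.43 at 16 h, a change of -0.71 ± 0.09 (SE, adjusted p = 0.00138). FAM162A, a mitochondrial protein of the hypoxic response, changed by 1.07 (adjusted p = 8.29e-05), the oxygen-binding myoglobin MB by 1.12 (adjusted p = 0.000382), the creatine transporter SLC6A8 by 1.0 (adjusted p = 0.000434) and MIR210HG, the host of a hypoxia-induced microRNA, by 0.96 (adjusted p = 0.00136). The FAM162A probe set used here can match other transcripts, and of its other probe sets those of the same kind rose by 1.04 and 1.02, while dimmer gene-specific ones changed by -0.03 and 0.20. Other SLC6A8 probe sets, at mean signals of 10.77 and 10.73, differed by 0.48 and 0.49, and neither was called. The count of HIF target rises was 6 without DHT 4 h replicate 1 and 7 without DHT 4 h replicate 2, and 1 member fell without DHT 16 h replicate 1. P4HA2 lost its call without DHT 4 h replicate 1 (adjusted p = 0.0966), and EGLN1 without either DHT 4 h array (adjusted p 0.0556 to 0.0804). BNIP3L lost its call without either DHT 4 h array or DHT 16 h replicate 1 (adjusted p 0.0602 to 0.15), and HK2 and LDHA without either DHT 4 h array or DHT 16 h replicate 2 (adjusted p 0.0633 to 0.168).

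The promoters of BNIP3 and P4HA1 are shown because these genes led the HIF group after NDRG1 and each holds the core letters ACGTG that HIF binds. The stretches are the 150 bases before the RefSeq start on GRCh38.p14, chr10:131981924-131982073 on the minus strand and chr10:73096867-73097016 on the minus strand, 5′ to 3′ as transcribed, with the match on either strand in capitals.
BNIP3: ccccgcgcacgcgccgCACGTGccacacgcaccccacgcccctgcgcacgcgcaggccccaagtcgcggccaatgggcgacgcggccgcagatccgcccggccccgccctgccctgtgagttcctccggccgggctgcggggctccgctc
P4HA1: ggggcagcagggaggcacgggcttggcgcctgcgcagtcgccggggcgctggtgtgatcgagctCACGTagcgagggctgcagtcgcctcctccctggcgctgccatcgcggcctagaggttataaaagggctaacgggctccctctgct
The P4HA1 match begins 86 bases before the start. In windows from 250 bases before to 50 bases after a start, ACGTG stood on either strand in 60.6% of 33 windows of the HIF list, and in 23.3% of 21490 windows of the 15384 measured genes that RefSeq windows matched. The list was made of HIF targets, so this excess describes the list and not these data. ACGTG was in 66.7% of 12 windows of its called members and 25.9% of 317 windows of all genes called higher. A match describes letters and is not a binding site.

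Of 27 measured genes of glycolysis and pyruvate use, 8 rose (29.6%, 3 without DHT 16 h replicate 2) and 1 fell (3.7%, 0 without DHT 16 h replicate 2), with a median change of 0.23. ENO2, an enolase, read 10.05 and 10.03 at 4 h and 10.82 and 10.87 at 16 h, a change of 0.81 ± 0.09 (SE, adjusted p = 0.000622), and PFKP, the platelet form of phosphofructokinase, read 11.29 and 11.19 at 4 h and 12.07 and 12.05 at 16 h, a change of 0.82 ± 0.10 (SE, adjusted p = 0.00077). Hexokinase HK2 changed by 0.57, pyruvate kinase PKM by 0.59, lactate dehydrogenase LDHA by 0.43, PGAM1 by 0.39 and GPI by 0.39, all called, together with PDK1. LDHA was very bright, with 14.75 and 14.75 at 4 h and 15.20 and 15.17 at 16 h. PC, the pyruvate carboxylase that refills the citrate cycle, changed by -0.43 (adjusted p = 0.04). Subunits of the respiratory chain had 0 of 32 called in either direction, a median of 0.00 and 1 higher and 1 lower at an unadjusted p below 0.05. The count of glycolytic rises was 3 without DHT 4 h replicate 1 or DHT 4 h replicate 2 or DHT 16 h replicate 2, and the fall of PC was not called in those fits. PKM lost its call without either DHT 4 h array or DHT 16 h replicate 2 (adjusted p 0.147 to 0.253), and PC without either vehicle array, either DHT 4 h array or either DHT 16 h array (adjusted p 0.0573 to 0.252). PGAM1 and GPI lost their calls without any 1 of the 8 arrays (adjusted p 0.0508 to 0.271).

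Of 23 measured genes of fatty acid synthesis and storage, 4 rose (17.4%, 3 without DHT 16 h replicate 2) and 0 fell, with 2 lower at an unadjusted p below 0.05. FASN, the fatty acid synthase, read 13.79 and 13.98 at 4 h and 14.64 and 14.45 at 16 h, a change of 0.66 ± 0.12 (SE, adjusted p = 0.0156). ACACA, which makes malonyl-CoA, read 10.99 and 11.15 at 4 h and 11.65 and 11.75 at 16 h, a change of 0.63 ± 0.10 (SE, adjusted p = 0.00516). SCD, the stearoyl-CoA desaturase, read 13.60 and 13.74 at 4 h and 14.24 and 14.38 at 16 h, a change of 0.64 ± 0.10 (SE, adjusted p = 0.00543), and SREBF1, the transcription factor of these genes, changed by 0.46 (adjusted p = 0.0291). The 16 h arrays were higher than the 4 h arrays in all of them, on the probe sets used. An SCD probe set with a mean signal of 13.99 differed by 0.25. Dimmer SCD probe sets differed in the opposite direction, by -0.53 and -0.45 at mean signals of 12.39 and 11.79. Dimmer second probe sets differed by -0.20 for FASN, 0.19 for ACACA and 0.48 for SREBF1. None of these further probe sets was called. ACLY, which makes cytosolic acetyl-CoA, differed by 0.23 (adjusted p = 0.38). The cholesterol pathway had 0 of 19 members called, with 1 higher and 6 lower at an unadjusted p below 0.05 and 3 called lower without DHT 16 h replicate 1. HMGCS1, its early synthase, read 12.20 and 12.39 at 4 h and 11.73 and 10.16 at 16 h, and its difference of -1.35 ± 0.35 (SE, adjusted p = 0.0671) did not pass. It was -0.56 from DHT 16 h replicate 1 alone and -2.14 from replicate 2 alone. ACACA and SCD lost their calls without DHT 4 h replicate 1 (adjusted p 0.0889 to 0.0898), and SREBF1 without either DHT 4 h array or DHT 16 h replicate 2 (adjusted p 0.143 to 0.212). The fatty acid count was 0 without DHT 4 h replicate 1 and 2 without DHT 4 h replicate 2, and 1 member was called lower without DHT 16 h replicate 1.

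Of 34 genes of endoplasmic reticulum folding and export, 3 rose (8.82%, 0 without DHT 16 h replicate 2), the transcription factor CREB3L2 (0.49), the chaperone cofactor DNAJB9 (0.48) and the signal peptidase subunit SEC11C (0.41), and 0 fell, with 2 lower at an unadjusted p below 0.05. Of 26 ATF4 targets and amino acid genes, 3 rose (11.5%, 3 without DHT 16 h replicate 2) and 3 fell (11.5%, 1 without DHT 16 h replicate 2). VLDLR, a lipoprotein receptor, read 7.33 and 7.38 at 4 h and 8.27 and 8.20 at 16 h, a change of 0.88 ± 0.13 (SE, adjusted p = 0.00369). PHGDH, the first enzyme of serine synthesis, read 11.14 and 11.06 at 4 h and 11.91 and 11.76 at 16 h, a change of 0.74 ± 0.10 (SE, adjusted p = 0.00147), and the asparagine synthetase ASNS changed by 0.81 (adjusted p = 0.00402), while its dim second probe set, at a mean signal of 4.73, changed by -0.01. The amino acid transporters SLC7A1 (-0.49), SLC7A5 (-0.46) and SLC38A2 (-0.46) fell. Of 17 aminoacyl-tRNA synthetases 0 were called, with 3 higher and 0 lower at an unadjusted p below 0.05. VLDLR and ASNS lost their calls without DHT 4 h replicate 1 (adjusted p 0.053 to 0.0588), and SLC7A1 without either DHT 4 h array or DHT 16 h replicate 1 (adjusted p 0.0551 to 0.171). CREB3L2 and SLC7A5 lost their calls without either DHT 4 h array or DHT 16 h replicate 2 (adjusted p 0.131 to 0.216), and SLC38A2 without either DHT 4 h array, DHT 16 h replicate 2 or either DHT 48 h array (adjusted p 0.0604 to 0.244). DNAJB9 and SEC11C lost their calls without any 1 of the 8 arrays (adjusted p 0.0557 to 0.36). Without DHT 16 h replicate 1, 2 export genes were called lower.

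Actin genes were among those that fell. Of 27 measured genes of the actin cytoskeleton, many of them targets of serum response factor (SRF), 8 fell (29.6%, 7 without DHT 16 h replicate 2) and 0 rose, 0 were higher at an unadjusted p below 0.05, and the median change was -0.26. Beside PALLD and VCL, TPM4, a tropomyosin that coats actin filaments, read 11.97 and 12.23 at 4 h and 10.91 and 10.29 at 16 h, a change of -1.50 ± 0.17 (SE, adjusted p = 0.00058). MYH9, a non-muscle myosin heavy chain, read 13.01 and 13.09 at 4 h and 11.83 and 11.64 at 16 h, a change of -1.31 ± 0.10 (SE, adjusted p = 2.29e-05). ZYX, the focal adhesion protein zyxin, read 11.26 and 11.24 at 4 h and 10.07 and 9.89 at 16 h, a change of -1.27 ± 0.10 (SE, adjusted p = 4.14e-05). In all 3 genes the 16 h arrays were lower than both 4 h arrays by more than 1 log2 unit. CNN2, the calponin that binds actin, changed by -1.10 (adjusted p = 5.96e-05), the smooth muscle actin ACTA2 by -0.53 (adjusted p = 0.0116) and the cross-linker ACTN1 by -0.50 (adjusted p = 0.0254). ACTB, which encodes beta-actin, differed by -0.26 (adjusted p = 0.171) at 15.51 and 15.51 at 4 h and 15.24 and 15.26 at 16 h, close to the top of the scale, and TAGLN, an SRF target, by 0.05 (adjusted p = 0.933). SRF itself differed by -0.19 (adjusted p = 0.568), and by -0.69 on a dimmer probe set that was not called either.

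Further genes of the cytoskeleton outside the list were picked after their values were seen. FERMT2, an integrin activator, changed by -1.27 (adjusted p = 0.000103) and CORO1C, an actin-binding coronin, by -1.16 (adjusted p = 0.000299). The actin-like copies ACTBP9 (-1.33) and POTEKP (-1.03) were also called lower, but their probe sets cannot be separated from other actin transcripts and their identity is uncertain. EZR, the membrane-actin linker ezrin, read 12.00 and 12.15 at 4 h and 11.63 and 10.74 at 16 h, and its change of -0.89 ± 0.21 (SE, adjusted p = 0.0479) was -0.45 from DHT 16 h replicate 1 alone and -1.34 from replicate 2 alone. ACTA2 lost its call without DHT 4 h replicate 1 or DHT 16 h replicate 2 (adjusted p 0.0601 to 0.153), and ACTN1 without either DHT 4 h array or DHT 16 h replicate 1 (adjusted p 0.0766 to 0.187). EZR lost its call without either vehicle array, either DHT 4 h array, DHT 16 h replicate 2 or either DHT 48 h array (adjusted p 0.0715 to 0.27).

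Promoters of TPM4 and CNN2 are shown because each holds a CArG box, the sequence SRF binds. The TPM4 stretch is the 200 bases before the start of 1 of its 3 RefSeq windows, chr19:16067338-16067537 on the plus strand, and the CNN2 stretch the 120 bases before the start, chr19:1026488-1026607 on the plus strand, both on GRCh38.p14, with the box in capitals.
TPM4: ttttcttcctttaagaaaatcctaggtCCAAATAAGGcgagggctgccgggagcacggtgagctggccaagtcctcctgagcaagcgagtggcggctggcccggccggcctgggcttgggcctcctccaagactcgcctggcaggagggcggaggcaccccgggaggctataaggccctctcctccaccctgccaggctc
CNN2: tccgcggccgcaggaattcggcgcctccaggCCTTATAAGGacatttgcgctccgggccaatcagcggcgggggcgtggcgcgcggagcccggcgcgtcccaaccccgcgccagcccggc
The boxes begin 173 and 89 bases before the starts. A CArG box on either strand was in 16% of 50 windows of the actin list and in 1.24% of the 21490 windows of all measured genes. The list was made to hold SRF targets, so this excess describes the list and not these data. The box was in 18.8% of 16 windows of its called members and 2.68% of 411 windows of all genes called lower.

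Of 27 genes of integrins, laminins and focal adhesions, 6 fell (22.2%, 5 without DHT 16 h replicate 2) and 0 rose, with 2 higher at an unadjusted p below 0.05. They were EPPK1, VCL, TNC, THBS1 and the integrin subunits ITGA2 (-0.52, adjusted p = 0.00811) and ITGB1 (-0.45, adjusted p = 0.0248). ITGB1, the shared beta chain of many integrins, read 12.44 and 12.50 at 4 h and 12.05 and 11.98 at 16 h. Of 22 YAP and TAZ targets, 5 fell (22.7%, 4 without DHT 16 h replicate 2) and 0 rose, with 0 higher at an unadjusted p below 0.05. AJUBA, a LIM protein of junctions, read 10.68 and 10.65 at 4 h and 9.79 and 9.72 at 16 h, a change of -0.91 ± 0.09 (SE, adjusted p = 0.000254). The growth factor TGFB2 changed by -0.81, the matricellular proteins CCN2 and CCN1 by -0.67 and -0.47, and WWTR1, which encodes TAZ, by -0.64, while YAP1 differed by -0.04 (adjusted p = 0.932). The receptor TNFRSF12A, picked after its values were seen, changed by -1.21 (adjusted p = 0.00628). The count of YAP and TAZ falls was 2 without DHT 4 h replicate 1, 1 without DHT 4 h replicate 2 and 3 without DHT 16 h replicate 1. TGFB2 and TNFRSF12A lost their calls without DHT 4 h replicate 2 (adjusted p 0.0784 to 0.0803), and ITGA2 without either DHT 4 h array (adjusted p 0.0813 to 0.0848). CCN2 lost its call without either DHT 4 h array or DHT 16 h replicate 1 (adjusted p 0.0841 to 0.266), and ITGB1 and WWTR1 without either DHT 4 h array or DHT 16 h replicate 2 (adjusted p 0.0709 to 0.194). CCN1 lost its call without either vehicle array, either DHT 4 h array, DHT 16 h replicate 1 or either DHT 48 h array (adjusted p 0.0607 to 0.276). Without DHT 16 h replicate 1, 2 integrin-list members were called higher.

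The aryl hydrocarbon receptor (AhR) senses dioxins and related compounds and switches on enzymes that clear them. Of 16 measured members of its battery 5 fell (31.2%, 5 without DHT 16 h replicate 2) and 0 rose, 0 were higher at an unadjusted p below 0.05, and the median change was -0.21. CYP1A1, the classical AhR target enzyme, read 9.69 and 9.62 at 4 h and 7.51 and 7.44 at 16 h, a change of -2.18 ± 0.09 (SE, adjusted p = 3.71e-07) or 4.54-fold lower. CYP1B1, which hydroxylates estrogens and polycyclic compounds, read 13.11 and 13.27 at 4 h and 11.28 and 11.40 at 16 h, a change of -1.85 ± 0.10 (SE, adjusted p = 1.34e-06), and its other 3 probe sets changed by -2.06, -1.99 and -2.16. AHR, the receptor itself, read 8.50 and 7.97 at 4 h and 7.35 and 7.38 at 16 h, a change of -0.87 ± 0.14 (SE, adjusted p = 0.00723). The oxidative stress factor NFE2L2 changed by -0.67 and its target TXNRD1, a thioredoxin reductase, by -0.59 (adjusted p = 0.00788 and 0.00521). TIPARP, a feedback inhibitor of AhR, differed by -0.41 (adjusted p = 0.0606) and the quinone reductase NQO1 by 0.18 (adjusted p = 0.391), so neither passed. Other NQO1 probe sets, also bright, differed by 0.64 and 0.08, and neither was called. The count of falls was 2 without DHT 4 h replicate 1. AHR and NFE2L2 lost their calls without DHT 4 h replicate 1 (adjusted p 0.0512 to 0.116), and TXNRD1 without either DHT 4 h array (adjusted p 0.053 to 0.0694).

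Cell division genes were among those that fell. Of 41 measured genes of mitosis 18 fell (43.9%, 36 without DHT 16 h replicate 2) and 0 rose, with 0 higher at an unadjusted p below 0.05 and a median change of -0.53 against 0.01 over all genes, and 40 of the 41 were below 0. ANLN, the actin-binding protein of the cleavage furrow, read 10.67 and 10.75 at 4 h and 9.73 and 9.22 at 16 h, a change of -1.23 ± 0.14 (SE, adjusted p = 0.000713). CCNA2, the cyclin of S phase and mitotic entry, read 11.79 and 11.73 at 4 h and 10.94 and 10.61 at 16 h, a change of -0.98 ± 0.12 (SE, adjusted p = 0.00096). SPC25, a kinetochore protein, read 9.33 and 9.29 at 4 h and 8.21 and 8.35 at 16 h, a change of -1.03 ± 0.11 (SE, adjusted p = 0.000447). The 16 h arrays were lower in all 3, and no 4 h difference from vehicle passed (adjusted p = 0.839, 0.994 and 0.605). KIF20A, a kinesin of cytokinesis (-0.84), CDK1, the mitotic kinase (-0.83), the kinases AURKB (-0.78), PLK1 (-0.67) and TTK (-0.61), the spindle protein TPX2 (-0.71), the centromere histone CENPA (-0.69), the topoisomerase TOP2A (-0.71) and the proliferation marker MKI67 (-0.60) were called as well. The remaining called members were DLGAP5, KIF23, KIF15, BUB1B, CCNB1 and PRC1, from -0.70 to -0.50. A dim second probe set of KIF23, at a mean signal of 7.02, changed by 0.05. FOXM1, a transcription factor of mitotic genes, read 11.51 and 11.49 at 4 h and 10.68 and 11.24 at 16 h, a difference of -0.54 that did not pass (adjusted p = 0.102).

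The 16 h replicates gave unequal falls in this group. The list median was -0.70 from DHT 16 h replicate 1 and -0.26 from DHT 16 h replicate 2, the array with the larger difference between 3′ and 5′ control probe sets. The count of falls was 7 without DHT 4 h replicate 1 or DHT 4 h replicate 2, 10 without DHT 16 h replicate 1 and 36 without DHT 16 h replicate 2. AURKA showed the spread, at 11.05 and 11.04 at 4 h and 10.19 and 10.90 at 16 h, a difference of -0.50 ± 0.18 (SE, adjusted p = 0.213). CDK1 lost its call without DHT 4 h replicate 1 (adjusted p = 0.0579), and MKI67 without DHT 4 h replicate 2 (adjusted p = 0.14). AURKB and PLK1 lost their calls without either DHT 4 h array (adjusted p 0.0566 to 0.118), and TTK, KIF23 and BUB1B without either DHT 4 h array or DHT 16 h replicate 1 (adjusted p 0.0637 to 0.248). TOP2A, DLGAP5, KIF15 and CCNB1 lost their calls without either DHT 4 h array, DHT 16 h replicate 1 or either DHT 48 h array (adjusted p 0.0502 to 0.311), and PRC1 without either vehicle array, either DHT 4 h array, DHT 16 h replicate 1 or either DHT 48 h array (adjusted p 0.0511 to 0.213).

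Promoters of ANLN and PLK1 are shown because each holds the letters TTTGAA, the cell cycle homology region through which mitotic genes are held down outside division. The stretches are the 100 bases before the start on GRCh38.p14, chr7:36389762-36389861 and chr16:23678789-23678888, both on the plus strand, with matches on either strand in capitals.
ANLN: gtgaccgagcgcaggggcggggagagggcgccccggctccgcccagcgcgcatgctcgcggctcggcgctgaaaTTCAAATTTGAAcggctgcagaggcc
PLK1: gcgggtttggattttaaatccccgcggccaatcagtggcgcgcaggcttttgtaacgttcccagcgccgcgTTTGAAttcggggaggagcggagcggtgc
The PLK1 match begins 29 bases before the start, and ANLN holds the motif on both strands side by side. TTTGAA on either strand was in 66.7% of 42 windows of the mitotic list, 2.38% of 42 windows of the replication list and 12.3% of the 21490 windows of all measured genes. CCAAT, which often accompanies it, was in 73.8%, 61.9% and 34.5%. These shares describe the lists and not the change in these data. TTTGAA was in 72.2% of 18 windows of the called mitotic members and 17.5% of 411 windows of all genes called lower.

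Of 37 measured genes of DNA replication 11 fell (29.7%, 7 without DHT 16 h replicate 2) and 0 rose, with 0 higher at an unadjusted p below 0.05 and a median change of -0.32. TK1, thymidine kinase, read 12.66 and 12.66 at 4 h and 11.87 and 11.70 at 16 h, a change of -0.87 ± 0.10 (SE, adjusted p = 0.000622). RRM2, the small subunit of ribonucleotide reductase, read 13.23 and 13.27 at 4 h and 12.53 and 12.28 at 16 h, a change of -0.84 ± 0.10 (SE, adjusted p = 0.000924), and then rose by 0.68 up to 48 h (adjusted p = 0.0102). The 16 h arrays of RRM2 were therefore the lowest of all 8. Thymidylate synthase TYMS changed by -0.67, the helicase subunits MCM4 and MCM7 by -0.55 and -0.54, the replication clamp PCNA by -0.55, MCM10 by -0.68 and the repressor E2F8 by -0.70, and CDC45, LIG1 and ORC1 by -0.52, -0.50 and -0.45. The replication count was 3 without DHT 4 h replicate 1, 2 without DHT 4 h replicate 2 and 7 without DHT 16 h replicate 2. TYMS lost its call without DHT 4 h replicate 2 (adjusted p = 0.0656), and MCM7, PCNA and CDC45 without either DHT 4 h array (adjusted p 0.0545 to 0.141). MCM4 and MCM10 lost their calls without either DHT 4 h array or DHT 16 h replicate 2 (adjusted p 0.0525 to 0.223), and LIG1 without either DHT 4 h array, DHT 16 h replicate 1 or either DHT 48 h array (adjusted p 0.0576 to 0.23). E2F8 and ORC1 lost their calls without either DHT 4 h array, either DHT 16 h array or either DHT 48 h array (adjusted p 0.0502 to 0.274). CCNE2, the cyclin of S phase entry, differed by -0.40 (adjusted p = 0.278).

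Of 22 inhibitors and G1 cyclins 0 were called, with 3 higher and 5 lower at an unadjusted p below 0.05, and 1 higher and 3 lower without DHT 16 h replicate 1. CDKN1A, the inhibitor p21, read 9.81 and 10.05 at 4 h and 9.45 and 9.51 at 16 h, a difference of -0.45 (adjusted p = 0.0673), and CCND1, cyclin D1, read 12.80 and 12.77 at 4 h and 13.01 and 13.32 at 16 h, a difference of 0.38 (adjusted p = 0.0952). Of 20 p53 targets 2 fell (10%, 1 without DHT 16 h replicate 2), GDF15 and ZMAT3, an RNA-binding protein (-0.44, adjusted p = 0.0201, call lost without either 4 h array or DHT 16 h replicate 2, at adjusted p up to 0.17). None rose, and 1 was higher at an unadjusted p below 0.05, with 1 called higher without DHT 16 h replicate 1.

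**Figure D3:**
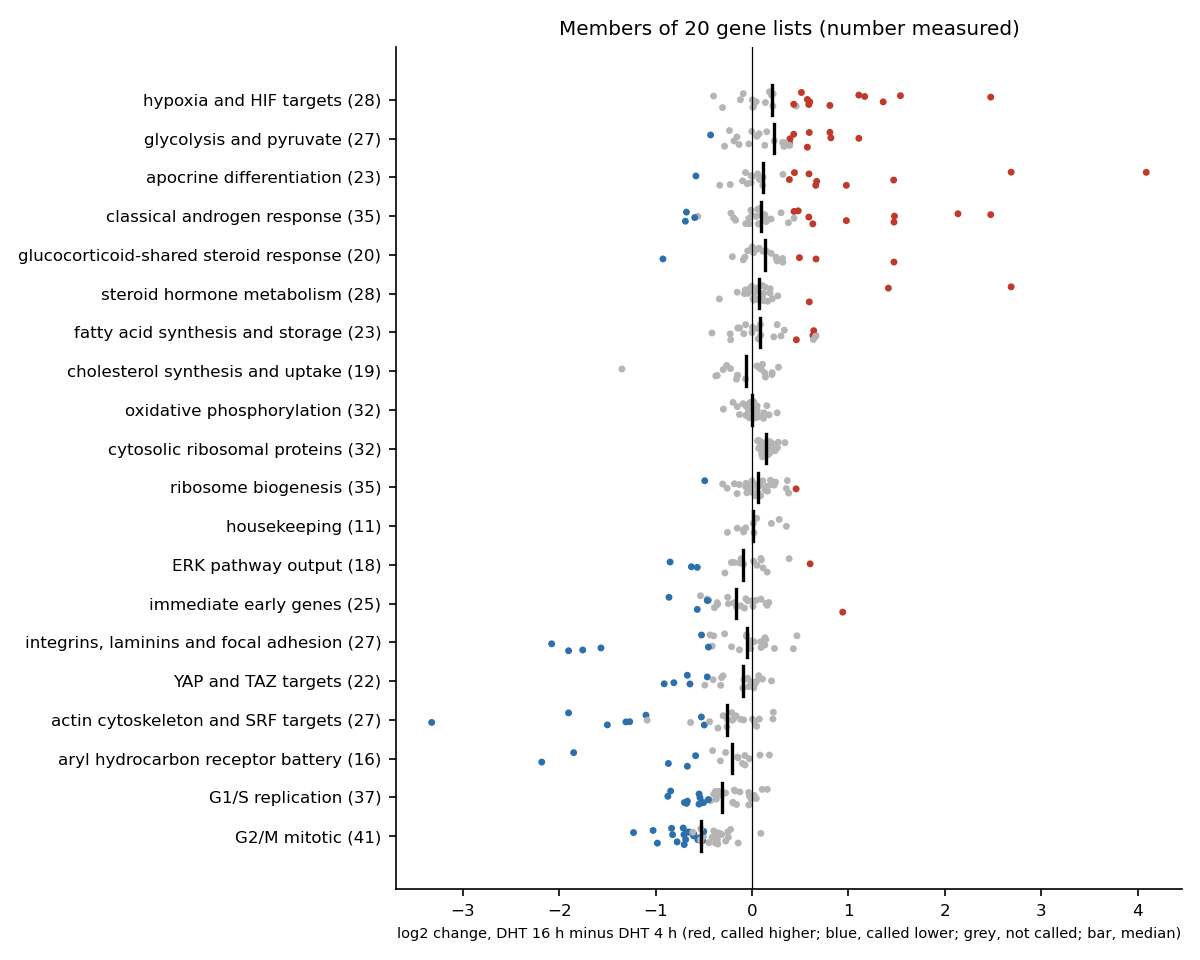
Each point is 1 measured member of 20 gene lists, with its log2 change from DHT 4 h to DHT 16 h on the horizontal axis; red points were called higher, blue points lower and grey points neither, and a bar marks the list median. Called members lie only to the right for hypoxia and HIF targets (11 of 28) and only to the left for actin (8 of 27), replication (11 of 37) and mitotic genes (18 of 41).

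**Figure D4:**
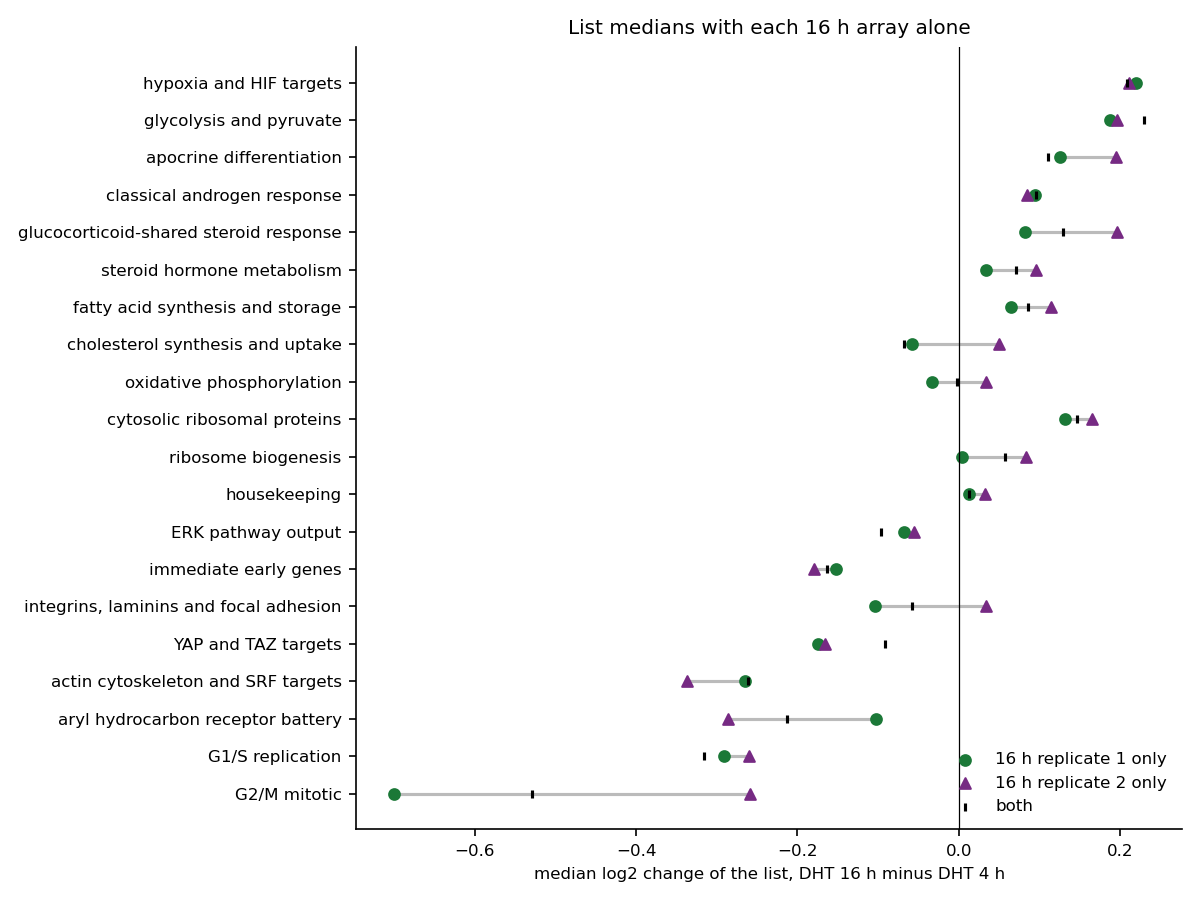
The median log2 change from DHT 4 h to DHT 16 h of the same 20 lists is shown with DHT 16 h replicate 1 alone (circles), with replicate 2 alone (triangles) and with both (bars). The medians of the mitotic list lie furthest apart, at -0.70 and -0.26, and those of hypoxia and HIF targets nearly coincide, at 0.22 and 0.21.

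Of 35 ribosome biogenesis genes 1 rose (2.86%, 0 without DHT 16 h replicate 2) and 1 fell (2.86%, 0 without DHT 16 h replicate 2), shares near those of all genes, 1.28% and 1.77%. They were the RNA polymerase I subunits POLR1D (0.46, adjusted p = 0.0381) and POLR1B (-0.49, adjusted p = 0.047). POLR1B read 9.42 and 9.30 with vehicle and 10.00 and 9.89 at 4 h and 9.49 and 9.42 at 16 h, with the 16 h arrays closer to vehicle than to 4 h. A second POLR1D probe set differed by -0.08 and a second of POLR1B by 0.25, neither called. Of 28 genes of the MYC network and its metabolic targets 1 rose (3.57%, 1 without DHT 16 h replicate 2), the purine enzyme PAICS (0.55, with 0.13 on its other bright probe set), and 1 fell (3.57%, 1 without DHT 16 h replicate 2), SLC7A5. The fall called without DHT 16 h replicate 2 was that of another member, since SLC7A5 lost its call there. MYCN, a relative of MYC, differed by 0.34 (adjusted p = 0.101), the partner MAX by -0.05 and the polyamine enzyme ODC1 by 0.29 (adjusted p = 0.19). Cytosolic ribosomal proteins had 0 of 32 called, yet all 32 lay above 0, from 0.06 to 0.34 for RPL3, with a median of 0.15 against 0.01 over all genes and 5 higher and 0 lower at an unadjusted p below 0.05. PAICS lost its call without either DHT 4 h array (adjusted p 0.064 to 0.106), and POLR1D without either DHT 4 h array, either DHT 16 h array or either DHT 48 h array (adjusted p 0.0621 to 0.263). POLR1B lost its call without either vehicle array, either DHT 4 h array or either DHT 16 h array (adjusted p 0.0622 to 0.34). Without DHT 16 h replicate 1 there were 3 ribosome biogenesis genes higher and 4 MYC network genes lower.

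Among 25 immediate early genes 4 fell (16%, 4 without DHT 16 h replicate 2), the flow-responsive transcription factor KLF2 (-0.86, adjusted p = 0.000341), IER3 (-0.57), CCN1 and JUN (-0.46), and 1 rose (4%, 1 without DHT 16 h replicate 2), the TGF-beta-induced factor KLF10, with 8.31 and 7.93 at 4 h and 8.90 and 9.22 at 16 h, a change of 0.94 ± 0.15 (SE, adjusted p = 0.00642). The falls called without DHT 16 h replicate 2 did not include JUN, which lost its call there, but another member of the list. FOS differed by -0.08 and EGR1 by 0.09, and neither passed. Among 18 transcripts that follow ERK activity 3 fell (16.7%, 3 without DHT 16 h replicate 2) and 1 rose (5.56%, 1 without DHT 16 h replicate 2). The feedback inhibitor SPRY1 changed by -0.85 (adjusted p = 0.000622) and the ephrin receptor EPHA4 by -0.63, and they fell with IER3, while the phosphatase DUSP4 rose by 0.60 (adjusted p = 0.00845). DUSP4 had read 9.525 and 9.525 with vehicle and 8.97 and 9.01 at 4 h. Its 16 h difference from vehicle did not pass (0.07, adjusted p = 0.775). Among 20 genes of the ERBB family 1 rose (5%, 0 without DHT 16 h replicate 2) and 2 fell (10%, 1 without DHT 16 h replicate 2). EGFR was called higher on 1 of its 9 probe sets, at 8.53 and 8.82 at 4 h and 9.40 and 9.42 at 16 h, a change of 0.74 ± 0.15 (SE, adjusted p = 0.0214), and the other 8 were not called, from -0.26 to 0.52, with 0.02 on the one nearest in signal. The called EGFR probe set had read 9.36 and 9.02 with vehicle, and its 16 h difference from vehicle did not pass (0.23, adjusted p = 0.457). The inhibitor ERRFI1 and the adaptor GAB1 (-0.40, with 0.05 on another probe set of like signal) fell. ERBB2, a receptor tyrosine kinase, read 13.42 and 13.34 at 4 h and 12.97 and 13.08 at 16 h, a difference of -0.36 that did not pass (adjusted p = 0.0661), and its partner ERBB3 differed by 0.09 (adjusted p = 0.771). EPHA4 lost its call without DHT 4 h replicate 1 (adjusted p = 0.126), and KLF10 without DHT 4 h replicate 2 (adjusted p = 0.0818). DUSP4 lost its call without either DHT 4 h array (adjusted p 0.0694 to 0.103), and IER3 without either DHT 4 h array or DHT 16 h replicate 1 (adjusted p 0.0545 to 0.184). EGFR lost its call without either DHT 4 h array or DHT 16 h replicate 2 (adjusted p 0.0506 to 0.239), and JUN without either vehicle array, either DHT 4 h array or DHT 16 h replicate 2 (adjusted p 0.0512 to 0.261). GAB1 lost its call without any 1 of the 8 arrays (adjusted p 0.0541 to 0.305).

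The Notch and WNT lists shared their only call, the Notch ligand JAG1, as 1 of 20 (5%, 1 without DHT 16 h replicate 2) and 1 of 27 members (3.7%, 1 without DHT 16 h replicate 2) that fell, with 0 rising and 2 and 1 higher at an unadjusted p below 0.05. JAG1 read 10.18 and 10.21 at 4 h and 8.99 and 9.22 at 16 h, a change of -1.09 ± 0.15 (SE, adjusted p = 0.0018). WNT7B, a WNT ligand known to respond to androgens in this line, differed by 0.10 (adjusted p = 0.79). Among 31 interferon and antigen presentation genes 1 fell (3.23%, 1 without DHT 16 h replicate 2), the guanylate-binding protein GBP2, at 8.77 and 9.23 at 4 h and 7.54 and 7.83 at 16 h, a change of -1.31 ± 0.20 (SE, adjusted p = 0.00445), with 0 rising and 0 higher at an unadjusted p below 0.05. Among 22 NF-kB genes 1 rose, NFKBIA (4.54%, 1 without DHT 16 h replicate 2), and 0 fell, with 1 lower at an unadjusted p below 0.05. Of 39 guidance genes 4 fell (10.3%, 3 without DHT 16 h replicate 2) and 2 rose (5.13%, 1 without DHT 16 h replicate 2). SEMA3C, a secreted semaphorin, read 10.46 and 10.15 at 4 h and 8.86 and 8.94 at 16 h, a change of -1.41 ± 0.15 (SE, adjusted p = 0.000453), and the netrin NTN4 read 9.75 and 9.53 at 4 h and 8.29 and 8.38 at 16 h, a change of -1.31 ± 0.10 (SE, adjusted p = 4.16e-05). They fell with EPHA4 and EFNB2 (-0.45), while the ephrins EFNA3 (0.77) and EFNA4 (0.54) rose. EFNA3 lost its call without DHT 4 h replicate 1 (adjusted p = 0.136), and GBP2 without DHT 4 h replicate 2 (adjusted p = 0.0653). EFNA4 lost its call without DHT 4 h replicate 2 or DHT 16 h replicate 2 (adjusted p 0.0958 to 0.191), and EFNB2 without either DHT 4 h array or DHT 16 h replicate 2 (adjusted p 0.0966 to 0.196). Guidance genes higher numbered 4 without DHT 16 h replicate 1, when 1 WNT gene was also called higher.

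Of 23 luminal genes 2 rose (8.7%, 1 without DHT 16 h replicate 2) and 1 fell (4.35%, 1 without DHT 16 h replicate 2). KRT19 and the ETS factor SPDEF (0.52, adjusted p = 0.0188) rose and AGR2, a secretory disulfide isomerase, fell, at 13.79 and 13.81 at 4 h and 12.66 and 12.78 at 16 h, a change of -1.07 ± 0.09 (SE, adjusted p = 5.21e-05). Other bright SPDEF probe sets differed by 0.45 and 0.48 and dimmer ones by -0.05 and -0.01, none of them called. GATA3 differed by -0.09 (adjusted p = 0.768), FOXA1 by 0.33 (adjusted p = 0.112), XBP1 by -0.01 (adjusted p = 0.979) and TFF1 by -0.40 (adjusted p = 0.149), and none passed. Among 40 luminal and KLF-family transcription factors 3 rose (7.5%, 1 without DHT 16 h replicate 2) and 2 fell (5%, 2 without DHT 16 h replicate 2). KLF10, SPDEF and CEBPA (0.43) rose, and KLF2 and the inhibitor of differentiation ID1 (-0.47) fell. The falls called without DHT 16 h replicate 2 did not include ID1, which lost its call there, but another member of the list. Of 19 tight junction genes 1 rose, CLDN8 (5.26%, 1 without DHT 16 h replicate 2), and 2 fell, OCLN (-0.49) and TJP1 (-0.43) (10.5%, 1 without DHT 16 h replicate 2). Of 23 splicing factors 1 rose, SRSF6 (4.35%, 0 without DHT 16 h replicate 2), by 0.44 (adjusted p = 0.0395), while its second, dimmer probe set differed by -0.29 without passing. None fell, with 3 lower at an unadjusted p below 0.05. Housekeeping genes had 0 of 11 called, with 2 higher and 1 lower at an unadjusted p below 0.05. OCLN lost its call without either DHT 4 h array or DHT 16 h replicate 1 (adjusted p 0.0729 to 0.199), and SPDEF and ID1 without either DHT 4 h array or DHT 16 h replicate 2 (adjusted p 0.106 to 0.204). CEBPA and TJP1 lost their calls without either vehicle array, either DHT 4 h array or either DHT 16 h array (adjusted p 0.0541 to 0.314), and SRSF6 without either vehicle array, either DHT 4 h array, DHT 16 h replicate 2 or either DHT 48 h array (adjusted p 0.0541 to 0.265). Splicing factors lower numbered 2 without DHT 16 h replicate 1.

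Markers of other cells are given because a bulk array cannot tell fewer cells of a type from less RNA per cell. The summed linear signal of 7 basal markers was 2673 and 2666 at 4 h and 2954 and 3067 at 16 h, with EGFR called higher and ACTA2 lower, as given above, neither of them without DHT 16 h replicate 2, and KRT14 at 5.86 to 6.25. For 16 mesenchymal markers the sums were 4681 and 4616 at 4 h and 4498 and 4509 at 16 h, and 0 were called. For 8 immune and endothelial markers they were 1659 and 1710, then 1732 and 1690, and for 11 prostate markers 5421 and 5355, then 5461 and 5610, with 0 called in either list. At an unadjusted p below 0.05 there was 1 mesenchymal marker lower, 0 of the immune and endothelial list and 2 prostate markers higher.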

How the data were processed

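RNA of 8 samples was read on Affymetrix HG-U133 Plus 2.0 arrays, whose probe sets sum several short probes per transcript. The deposited values are log2 signals that the authors made with RMA (background correction, quantile normalization and summary per probe set), per the submitters' processing notes, with no version named. They were used as deposited. Of 54675 probe sets, 41091 had 1 gene symbol in the platform annotation, 1801 had several and 11721 had none (62 were control probe sets), and the brightest probe set of each of 19775 genes was kept. Symbols in that annotation can be old. The array number limits the precision: the design had 4 residual degrees of freedom and the variance prior added 7.21.

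Means of the 4 groups were estimated together (limma 3.58.1, lmFit and eBayes, under R 4.3.3), and 16 h minus 4 h was tested two-sided with Benjamini-Hochberg adjustment over all genes, at an adjusted p below 0.05. "Rose", "fell" and "called" refer to that test, and errors are its standard errors. An exact permutation test of 2 arrays against 2 cannot go below 0.333. Nothing in the labels says that the replicates came from separate flasks or days, so p-values measure the spread between these arrays, which may be technical. The fit was tested on simulated data. The genes compared and the 43 gene lists were chosen with earlier results of these data known. Named genes are the 15 largest changes in each direction, up to 3 called members in each direction per list, the 6 largest early changes in each direction and a few fixed genes. Other genes named were chosen after their values were seen: list members to complete a count, and those so described in the text. Promoter sequences are RefSeq's on GRCh38.p14. Alternatives covered the arrays fitted, normalization, array weights, the probe set per gene, a filter on dim genes, the threshold and leaving out each array.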

Additional observations from a re-analysis of the deposited data

How the results depend on the processing

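No gene was called in the opposite direction under any alternative tried. Against 254 genes higher and 350 lower, a fit of only the 4 arrays compared gave 126 and 176, testing all probe sets gave 139 and 205, leaving out probe sets that can match several transcripts gave 150 and 203, and asking for a log2 change of at least 1 as well gave 24 and 51. Leaving out 1 array at a time gave 73 to 594 genes higher and 93 to 513 lower. With values shifted to equal housekeeping means, 249 were higher and 438 lower, 36.2% higher against 42.1%. Limma-trend, array weights, a further quantile normalization and the filter on dim genes kept both counts within 1.5 times. Changes of sign without a call were counted only among the named genes. Without probe sets that can match several transcripts, 4 of these were read by a dimmer one and changed sign, with no call: ASNS to -0.011 (adjusted p = 0.993), FAM162A to -0.030 (adjusted p = 0.964), KIF23 to 0.046 (adjusted p = 0.954) and PALLD to 0.043 (adjusted p = 0.941).

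The replicate numbers did not pair the arrays. Same-numbered arrays' deviations from their group means correlated from -0.244 to 0.196, and with the replicate number as a block (replicate block) 220 genes were higher and 326 lower. Of the 98 genes that the naming rule chose and the test called, 49 kept their call without each of the 8 arrays and 49 lost it without at least 1. At low signal differences are compressed: 83 of the 604 called genes had a mean at or below 8.44, the median of all genes.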
